A study of Mus musculus with 10 samples.

Results

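Cathepsins and legumain are proteases that work mainly inside lysosomes, the acid compartments in which a cell breaks down proteins and other cargo. The transcripts of 10 of these genes were followed in sorted myeloid cells of the mouse spinal cord, namely *Ctsa*, *Ctsb*, *Ctsc*, *Ctsd*, *Ctsh*, *Ctsk*, *Ctsl*, *Ctss*, *Ctsz* and *Lgmn*. They were taken by gene name from a count table of 55487 genes, and all 10 were found. All animals were male C57BL/6 mice of 8 to 12 weeks with a reporter allele that encodes yellow fluorescent protein (YFP), and all had experimental autoimmune encephalomyelitis (EAE) at peak disease. EAE was induced with a peptide of myelin oligodendrocyte glycoprotein in complete Freund's adjuvant and with pertussis toxin, and it serves as a model of multiple sclerosis. Viable cells with CD45 and CX3CR1 on the surface, but without CD3 and Ly6G, were sorted by the reporter into YFP+ and YFP- cells, with 200000 YFP+ and 100000 YFP- cells per library. Each animal gave 1 library of each kind, and the 5 animals are m2, m6, m234, m235 and m236. Because CX3CR1 is shared by several kinds of macrophage, each group can hold cells of monocyte origin as well as resident ones, and neither group came from a healthy animal.

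Cathepsins are made as inactive precursors and reach the lysosome largely through receptors for mannose 6-phosphate, where low pH and other proteases remove the propeptide. Most are cysteine proteases of the papain family, whereas cathepsin D is an aspartic and cathepsin A a serine protease, and legumain cuts after asparagine. In macrophages and microglia they digest engulfed material, including myelin debris, and some of them trim the invariant chain and antigens for presentation on class II molecules. Cystatins and some serpins inhibit them.

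The total count of a library was 28870482 to 33826355 in YFP+ cells and 8396863 to 35455643 in YFP- cells. The smallest total was that of m234 in YFP- cells, which limits the precision of its low values most. Levels are given as CPM, counts scaled to the library size with TMM adjustment, which corrects the totals for differences in composition. Every cathepsin and legumain had at least 222 counts in every library, a minimum reached by *Ctsk*, and all 10 passed the filter of CPM above 1 in at least 3 libraries. *Cd3e* and *Ly6g*, markers of the cells removed by the gate, did not exceed 0.233 and 0.129 CPM in any library, while *Ptprc*, which encodes CD45, was at 593.6 CPM or more in all of them. *Cx3cr1*, whose product was required by the gate, ranged from 43.9 CPM in the YFP+ library of m235 to 564 CPM in the YFP- library of m234. That same library of m234 in YFP- cells stood apart in depth and also in its microglia markers, whose values stand beside the comparison between animals.

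YFP+ cells held more transcripts of most of these proteases than YFP- cells of the same animals. The comparison asked how the expression program of the cells differs with the reporter. *Ctsd*, *Ctsb*, *Ctsl*, *Ctss*, *Ctsa* and *Ctsh* were higher in each of the 5 animals, with fitted differences of 1.13-fold for *Ctsh* to 1.76-fold for *Ctsd*. *Ctsk* was also higher in every animal, but its level varied widely from animal to animal, and *Ctsc* was slightly lower in every animal. *Ctsz* and *Lgmn* differed in direction between animals. In the test, 6 genes (those from *Ctsd* to *Ctsh* above) passed as higher and 0 as lower, and without animal m2 the test called 3, *Ctsb*, *Ctsd* and *Ctsl*. These calls came from edgeR's quasi-likelihood test with a Benjamini-Hochberg adjusted p below 0.05 over all 13740 genes tested, among which 6.82% were called higher and 6.15% lower. All log2 fold changes are YFP+ over YFP-. Of the 6, 0 passed a further limit of an absolute log2 fold change above 1, a limit passed by 0.560% of all genes as higher and 0.888% as lower. The same 0 was found with limma-trend, with DESeq2 and at an unadjusted p below 0.05. For the 0 lower genes, 1 gene, *Ctsc*, was lower at an unadjusted p below 0.05 in edgeR and at the adjusted limit in DESeq2, and limma-trend called 0. Over all 13740 genes tested, an unadjusted p below 0.05 in edgeR gave 2062 higher and 2055 lower genes. For each of the 6, every YFP+ library was above every YFP- library, as in 6.15% of all genes tested, and the 2-sided exact permutation p of each was 0.00794, the smallest that 5 against 5 libraries can give in this test, which takes no account of the pairing by animal.

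Over all genes, the libraries of an animal deviated together from their group means, so a fit with the animal as a block was set beside the fit without it. The block raised the number of calls over all genes to 16.8% higher and 18.3% lower. With the block, 7 of the 10 genes were higher, *Ctsk* being added, and 1, *Ctsc*, was lower. The median log2 fold change of the 10 genes was 0.36, against −0.0022 over all genes tested, and 9 of the 10 had a positive value. Scaling to raw library totals changed the split of calls over all genes from 937 higher and 845 lower to 705 higher and 1281 lower, and it shifted the median of all genes to −0.042. Under that scaling 5 of the 10 genes were called higher and 0 lower, with *Ctsh* lost. Over all genes the calls fell to 372 higher and 316 lower without animal m2, to 360 and 284 without m6 and to 500 and 412 without m236. Leaving out single libraries gave 572 and 481 for m2 and 629 and 518 for m6 in YFP+ cells, and 672 and 561 for m2 in YFP- cells. Bulk values cannot tell fewer cells of a type from less RNA per cell.

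**Figure D1:**
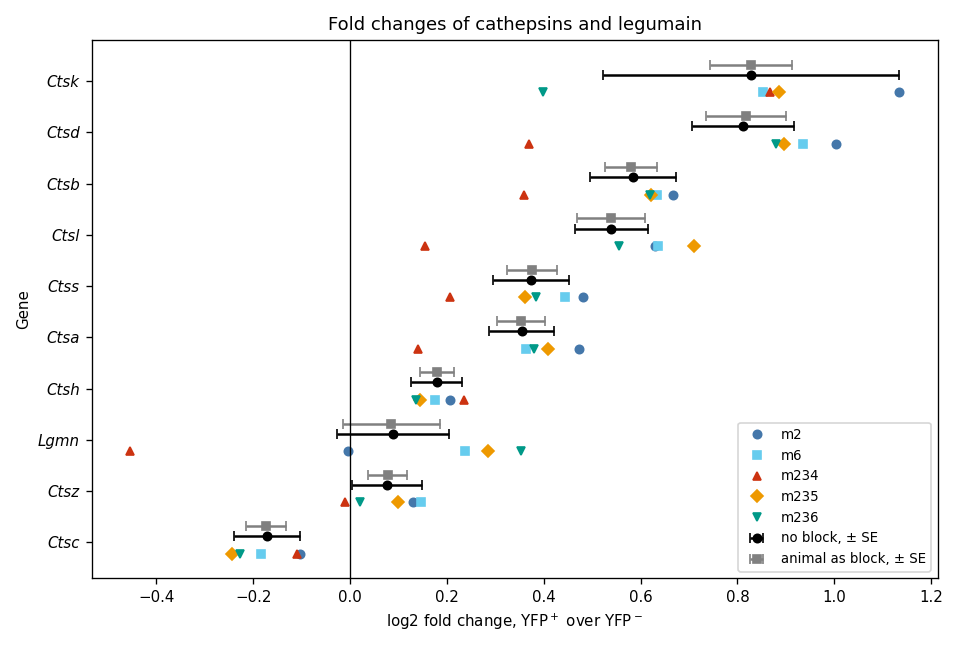
The log2 fold change of each gene, YFP+ over YFP-, is drawn on the horizontal axis, with a black circle for the fit without a block, a grey square for the fit with the animal as a block (bars, SE) and coloured symbols for the 5 animals. Animal m234 gave the smallest difference for *Ctsd*, *Ctsb*, *Ctsl*, *Ctss* and *Ctsa*, and the error bar of *Ctsk* is narrower with the block.

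Among the endopeptidases, which cut inside protein chains, *Ctsd* showed the largest difference of those of the 10 genes called without a block. With the block, *Ctsk* was also called, at a log2 fold change of 0.828 against 0.818 for *Ctsd*. *Ctsd* (ENSMUSG00000007891, chr7:142375911-142388038, minus strand; coordinates on GRCm38) encodes cathepsin D, the major aspartic protease of the lysosome. In YFP+ cells its level was 5037 CPM in m2, 4307 in m6, 4105 in m234, 4517 in m235 and 5222 in m236. In YFP- cells it was 2514 CPM in m2, 2252 in m6, 3180.2 in m234, 2427 in m235 and 2837 in m236. The groups were apart, and the YFP- library of m234 was the highest of its group while the YFP+ library of m234 was the lowest of its own. Group levels were 4638 ± 477 (YFP+) and 2642 ± 368 CPM (YFP-; mean ± SD of 5 libraries), a 1.76-fold difference with a log2 fold change of 0.81 ± 0.11 (SE) and an adjusted p of 8.60e-04 in edgeR's quasi-likelihood test. The call held in each of the 24 alternative fits, which used other tools, scaling or filters, the block, or 1 animal or library fewer.

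*Ctsb* (ENSMUSG00000021939, chr14:63122462-63145923, plus strand) encodes cathepsin B, a cysteine protease that both cuts inside chains and removes dipeptides from their ends. Its level in YFP+ cells was 6681 CPM in m2, 6471 in m6, 5701 in m234, 7296 in m235 and 7479.7 in m236. The YFP- cells had 4206 CPM in m2, 4169 in m6, 4448 in m234, 4741 in m235 and 4868 in m236. The lowest YFP+ library, again that of m234, was still above the highest YFP- library, that of m236. On average *Ctsb* was at 6726 ± 709 (YFP+) and 4486 ± 313 CPM (YFP-; mean ± SD of 5 libraries), and the log2 fold change was 0.58 ± 0.088 (SE; adjusted p = 0.00184, edgeR's quasi-likelihood test). *Ctsl* (ENSMUSG00000021477, chr13:64359337-64370890, minus strand) encodes cathepsin L, a strong cysteine endopeptidase. For *Ctsl*, YFP+ cells had 952 CPM in m2, 988 in m6, 817 in m234, 1044 in m235 and 955 in m236, and YFP- cells 616 CPM in m2, 636 in m6, 734 in m234, 638 in m235 and 649.7 in m236. The YFP- library of m234 was the highest of its group and lay nearest to the YFP+ libraries, without overlap. *Ctsl* averaged 951 ± 83.3 (YFP+) and 655 ± 46.0 CPM (YFP-; mean ± SD of 5 libraries), and its log2 fold change was 0.54 ± 0.075 (SE), with an adjusted p of 0.00121 in edgeR's quasi-likelihood test. The calls of *Ctsb* and *Ctsl* also held in each of the 24 alternative fits.

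*Ctss* (ENSMUSG00000038642, chr3:95526786-95556403, plus strand) encodes cathepsin S, a cysteine protease of antigen-presenting cells that stays active near neutral pH and removes the last part of the invariant chain from class II molecules. YFP+ cells had 9042 CPM in m2, 8786 in m6, 8467 in m234, 9598 in m235 and 9826 in m236 of *Ctss*. In YFP- cells the level was 6477 CPM in m2, 6457 in m6, 7342 in m234, 7476 in m235 and 7527 in m236. It was the most abundant of the 10 genes in every library on this scale, and the lowest YFP+ value, in m234, was above the highest YFP- value, in m236. The averages of 9144 ± 563 (YFP+) and 7056 ± 542 CPM (YFP-; mean ± SD of 5 libraries) differed by a log2 fold change of 0.37 ± 0.078 (SE; adjusted p = 0.0103, edgeR's quasi-likelihood test). The call was lost when animal m2 (adjusted p = 0.0657) or animal m6 (adjusted p = 0.0701) was left out, and over all alternatives of edgeR, limma-trend and DESeq2 the adjusted p was 1.77e-06 to 0.0701.

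Of 10 genes for class II molecules, the invariant chain (the substrate of cathepsin S) and *Ciita*, the coactivator of class II transcription (named after its values were seen), 5 were called lower and 0 higher in edgeR's quasi-likelihood test. The invariant chain gene, the classical class II genes and *Ciita* were not among the 5. All 10 had a negative log2 fold change (median −0.56), and with the block all 10 were called lower. No gene of the list was higher at an unadjusted p below 0.05 in edgeR or at the adjusted limit of limma-trend or DESeq2. *Cd74*, the invariant chain gene and the most abundant of the list, averaged 6495 ± 1927 (YFP+) and 7957 ± 781 CPM (YFP-; mean ± SD of 5 libraries), a log2 difference of −0.29 ± 0.17 (SE; adjusted p = 0.268, edgeR's quasi-likelihood test). Its adjusted p was 0.0167 with the block and 0.0459 when the YFP+ library of m234 was left out (log2 fold change −0.46), in a range of 0.0167 to 0.494 over all alternatives. The 5 called genes encode the DM and DO proteins that edit peptide loading, with *H2-Ob* the lowest at −1.49 ± 0.33, followed by *H2-Oa* at −1.12 ± 0.30, *H2-DMb2* at −0.82 ± 0.16, *H2-DMb1* at −0.56 ± 0.13 and *H2-DMa* at −0.51 ± 0.12 on the log2 scale (SE). Leaving out animal m2 ended the call of each of the 5. *H2-DMa* was not called without m6, m235 or m236 either, *H2-DMb1* not without m6 or m235, and *H2-Oa* not without m6 or m236, without the YFP- library of m2 or m6, or without that of m2, m235 or m236 among YFP+ cells. Where a call was lost, the adjusted p was 0.0511 to 0.0975 in edgeR.

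*Ctsk* (ENSMUSG00000028111, chr3:95499256-95509362, plus strand) encodes cathepsin K, the main collagen-degrading protease of osteoclasts, and it lies next to *Ctss*, with 17423 bases between the genes. It was the least abundant of the 10 and the most variable between animals. YFP+ cells had 72.0 CPM in m2, 54.5 in m6, 47.7 in m234, 127 in m235 and 52.2 in m236 of *Ctsk*. YFP- cells had 32.8 CPM in m2, 30.2 in m6, 26.1 in m234, 68.6 in m235 and 39.5 in m236. Animal m235 was far above the others in both groups, so the YFP- library of m235 exceeded all YFP+ libraries but those of m2 and m235, and the groups overlapped. Within each animal the YFP+ library was higher, by a log2 ratio of 1.13 in m2, 0.85 in m6, 0.87 in m234, 0.89 in m235 and 0.40 in m236. Without a block the log2 fold change of 0.83 ± 0.31 (SE) was not called (adjusted p = 0.0935 in edgeR's quasi-likelihood test; 2-sided exact permutation p = 0.0476), although it was the largest of the 10. With the animal as a block it was 0.83 ± 0.085 (SE) with an adjusted p of 7.55e-05. Leaving out animal m235 gave 0.81 (adjusted p = 0.00846), leaving out only its YFP- library gave 1.13 (adjusted p = 0.0248), and leaving out only its YFP+ library gave 0.51 (adjusted p = 0.206), all in edgeR's quasi-likelihood test. Over all alternatives, the adjusted p of *Ctsk* ran from 7.55e-05 to 0.265.

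Of 9 other osteoclast genes, 6 were tested, 2 were higher and 1 was lower in YFP+ cells, or 2 and 3 with the block, and their median was −0.26 on the log2 scale. *Acp5*, the tartrate-resistant acid phosphatase gene and the most abundant of the list, was higher by 0.79 ± 0.15 (log2, SE; adjusted p = 0.00690), and *Atp6v0d2*, a proton pump subunit gene, by 1.82 ± 0.29 (adjusted p = 0.00238), whereas *Ocstamp*, a gene for osteoclast fusion, was lower at −2.43 ± 0.25 (adjusted p = 2.40e-04), all in edgeR's quasi-likelihood test. *Ocstamp* was at most 0.935 CPM in YFP+ libraries and passed the filter only through YFP- libraries, where it is high. No conclusion is therefore drawn from its call. *Calcr*, the calcitonin receptor gene, had 0 counts in all 10 libraries.

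**Figure D2:**
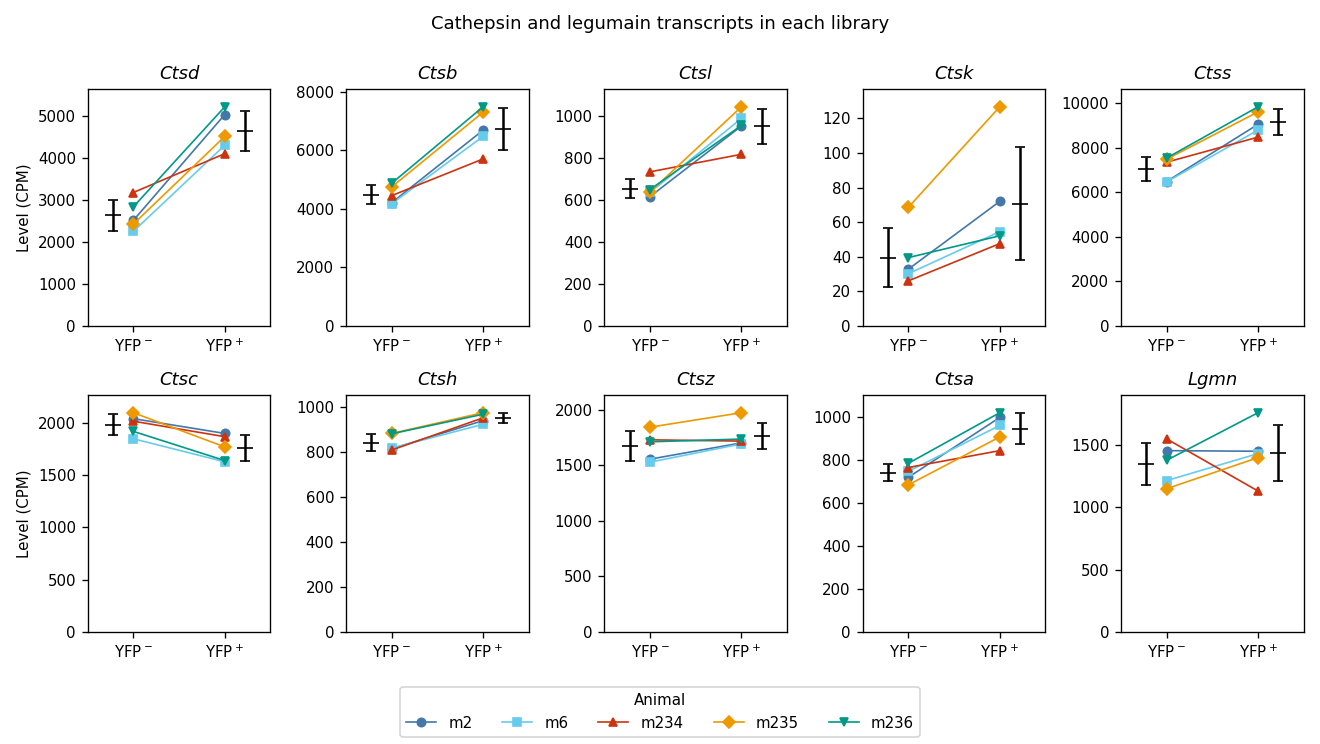
Levels in CPM (vertical axes, starting at 0) of the 10 genes in YFP- and YFP+ cells are joined by a line for each animal, with the mean and SD (n = 5) in black beside each group. The YFP+ end of the line is above the YFP- end in all 5 animals for *Ctsd*, *Ctsb*, *Ctsl*, *Ctsk*, *Ctss*, *Ctsh* and *Ctsa* and below it in all 5 for *Ctsc*.

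Exopeptidases trim chains from their ends. *Ctsc* (ENSMUSG00000030560, chr7:88278085-88310888, plus strand) encodes cathepsin C, or dipeptidyl peptidase I, which removes dipeptides from the amino end and so activates serine proteases of cytotoxic and granulocyte granules. Its level was 1896 CPM in m2, 1625 in m6, 1865 in m234, 1767 in m235 and 1637 in m236 in YFP+ cells. It was 2038 CPM in m2, 1846 in m6, 2014 in m234, 2095 in m235 and 1916 in m236 in YFP- cells. The groups overlapped because the YFP+ libraries of m2 and m234 exceeded the YFP- library of m6, but within each animal the YFP+ library was the lower, by a log2 ratio of −0.10 in m2, −0.18 in m6, −0.11 in m234, −0.24 in m235 and −0.23 in m236. Its log2 fold change of −0.17 ± 0.068 (SE) had an adjusted p of 0.112 in edgeR's quasi-likelihood test without a block (2-sided exact permutation p = 0.0317). With the block it was −0.17 ± 0.041 (adjusted p = 0.00869), and over all alternatives the adjusted p was 0.00869 to 0.311. Of 5 granule serine proteases that cathepsin C matures, only *Prtn3*, the proteinase 3 gene, passed the filter, at 5.18 ± 1.02 (YFP+) and 6.32 ± 1.57 CPM (YFP-; mean ± SD of 5 libraries), with a log2 fold change of −0.30 ± 0.18 (SE; adjusted p = 0.295, edgeR). It was called by none of edgeR, limma-trend and DESeq2, and its unadjusted p was above 0.05.

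*Ctsh* (ENSMUSG00000032359, chr9:90054152-90076089, plus strand) encodes cathepsin H, an aminopeptidase. In YFP+ cells it had 941 CPM in m2, 925 in m6, 953 in m234, 976 in m235 and 969 in m236. The YFP- values were 815 CPM in m2, 818 in m6, 809.9 in m234, 884 in m235 and 882 in m236. This was the narrowest spread of the 10 genes, with a coefficient of variation of 2.20% in YFP+ and 4.47% in YFP- cells, and the groups did not overlap. Its log2 fold change was only 0.18 ± 0.053 (SE), with an adjusted p of 0.0458 in edgeR's quasi-likelihood test, close to the limit. That call was lost in 14 of the 15 fits that left out an animal or a library (adjusted p = 0.0532 to 0.167) and held only without the YFP- library of m235 (adjusted p = 0.0444). It was also lost with raw library totals and without the filter on low counts, and it held with the block (adjusted p = 0.00393), in a range of 5.31e-04 to 0.167 over all alternatives of edgeR, limma-trend and DESeq2.

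*Ctsz* (ENSMUSG00000016256, chr2:174427493-174439039, minus strand) encodes cathepsin Z, also called X, a carboxypeptidase. YFP+ cells had 1700.3 CPM in m2, 1691 in m6, 1716 in m234, 1972 in m235 and 1735 in m236, and YFP- cells 1554 CPM in m2, 1527 in m6, 1728 in m234, 1842 in m235 and 1710.1 in m236. Among YFP+ libraries that of m235 was far above the others, the YFP- library of m235 was the highest of its group, and the groups overlapped. A log2 fold change of 0.076 ± 0.073 (SE; adjusted p = 0.517, edgeR's quasi-likelihood test) was within the spread between libraries, and no alternative called it.

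*Ctsa* (ENSMUSG00000017760, chr2:164832873-164841032, plus strand) encodes cathepsin A, a serine carboxypeptidase that also holds the sialidase NEU1 and the β-galactosidase GLB1 in a protective complex. In YFP+ cells *Ctsa* was at 998 CPM in m2, 961 in m6, 844 in m234, 907 in m235 and 1020.3 in m236. In YFP- cells it was at 719 CPM in m2, 747 in m6, 765 in m234, 684 in m235 and 784 in m236. The groups were apart, with the YFP+ library of m234 nearest to the YFP- range. *Ctsa* averaged 946 ± 71.4 (YFP+) and 740.0 ± 39.4 CPM (YFP-; mean ± SD of 5 libraries), with a log2 fold change of 0.35 ± 0.067 (SE) and an adjusted p of 0.00632 in edgeR's quasi-likelihood test, or 0.0501 without animal m2, the only alternative in which the call was lost (range over all alternatives 3.13e-06 to 0.0501). Both partner genes were higher as well, *Glb1* by 0.50 ± 0.087 (log2, SE; adjusted p = 0.00408) and *Neu1* by 0.19 ± 0.052 (adjusted p = 0.0324). The call of *Neu1* held in edgeR only without animal m234, without the YFP+ library of m234 or without the YFP- library of m236 among the 15 fits that left out an animal or a library, with adjusted p of 0.0505 to 0.158 in the other 12, and it was also lost with raw library totals and without the filter on low counts (range over all alternatives 0.00379 to 0.158).

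*Lgmn* (ENSMUSG00000021190, chr12:102394084-102439813, minus strand) encodes legumain, an asparagine-specific endopeptidase that helps to mature several cathepsins. YFP+ cells had 1449 CPM in m2, 1430.0 in m6, 1129 in m234, 1398 in m235 and 1758 in m236 of *Lgmn*. YFP- cells had 1454 CPM in m2, 1213 in m6, 1548 in m234, 1148 in m235 and 1376 in m236. The groups overlapped throughout, and the animals went different ways, with a log2 ratio of −0.0050 in m2, 0.24 in m6, −0.45 in m234, 0.28 in m235 and 0.35 in m236. The m234 pair had both the highest YFP- and the lowest YFP+ value. Its log2 fold change was 0.089 ± 0.12 (SE; adjusted p = 0.648, edgeR's quasi-likelihood test), and it was 0.22 (adjusted p = 0.174) without animal m234, and no alternative called it (adjusted p = 0.174 to 0.988).

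Levels of different genes were compared per kilobase of exon, the total exon length of the gene in the annotation. *Ctss* led in both groups, at 6733 ± 415 CPM per kilobase in YFP+ and 5196 ± 399 in YFP- cells (mean ± SD of 5 libraries). In YFP+ cells *Ctsd* (2180.4 ± 224), *Ctsb* (1418 ± 149) and *Ctsz* (1223 ± 81.9) followed, and the libraries of *Ctsb* and *Ctsz* overlapped on this scale. In YFP- cells the order was *Ctsd* (1242 ± 173), *Ctsz* (1160.4 ± 90.7) and *Ctsb* (946 ± 65.96), with *Ctsd* and *Ctsz* overlapping and *Ctsz* above *Ctsb* in every library. *Ctsb* thus stood above *Ctsz* in mean level per kilobase in YFP+ cells and below it in YFP- cells.

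Further down the order per kilobase, both groups had *Lgmn* (710.0 ± 111 in YFP+ and 668 ± 82.2 in YFP- cells), *Ctsh* (589 ± 12.98 and 521 ± 23.3), *Ctsc* (330.1 ± 23.6 and 372 ± 18.7), *Ctsa* (257 ± 19.4 and 201 ± 10.7), *Ctsl* (154 ± 13.5 and 106 ± 7.46) and *Ctsk* (46.7 ± 21.6 and 26.1 ± 11.2 CPM per kilobase). Of these neighbours, only *Lgmn* and *Ctsh* overlapped between libraries, and only in YFP+ cells. With the length of the longest principal transcript instead, a scale chosen after the data were seen, the level of *Ctsc* was higher, at 705 CPM per kilobase in YFP+ and 795 in YFP- cells, against 720.0 and 677 for *Lgmn*. *Ctsc* was then above *Ctsh* in mean level in both groups and above *Lgmn* in YFP- cells but not in YFP+ cells.

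**Figure D3:**
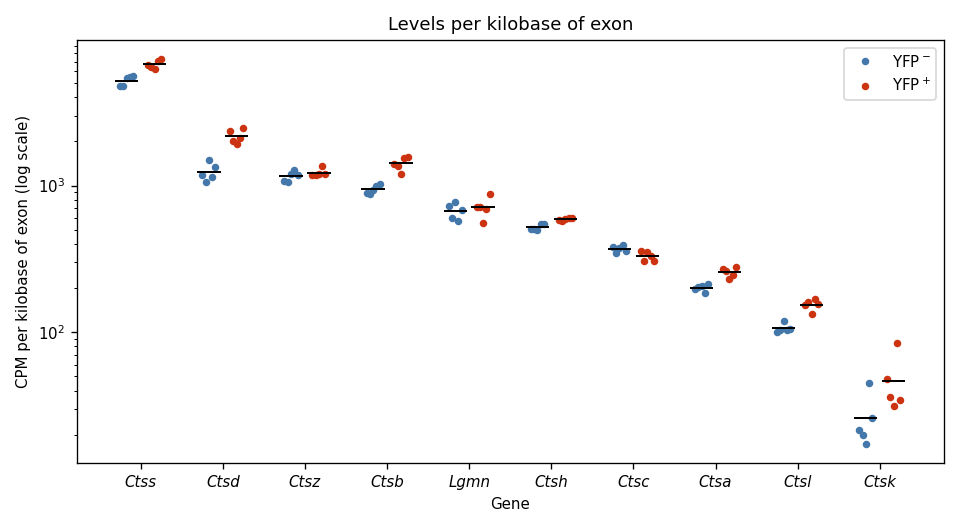
Level per kilobase of exon (vertical log axis, CPM per kilobase) of each gene, ordered by the mean over both groups, with 1 point per library (YFP- blue, YFP+ red) and a black line at the mean of 5 libraries. *Ctss* lies above and *Ctsk* below all other genes in every library.

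Together the 10 genes took up a clear share of the reads. Their summed counts made up 2.87% in m2, 2.697% in m6, 2.51% in m234, 2.89% in m235 and 3.02% in m236 of all counts in YFP+ cells, and 2.12% in m2, 2.00% in m6, 2.29% in m234, 2.18% in m235 and 2.28% in m236 in YFP- cells. Every YFP+ library was above every YFP- library, with means of 2.80% ± 0.198 and 2.18% ± 0.120 (± SD, n = 5). *Ctss* alone gave 32.2% ± 0.575 of the summed CPM in YFP+ and 32.9% ± 0.854 in YFP- cells. *Ctsd* gave 16.3% ± 0.923 and 12.3% ± 1.18, and *Ctsb* 23.7% ± 0.970 and 20.9% ± 0.788, in the same order. The share of *Ctss* thus overlapped between the groups, while those of *Ctsd* and *Ctsb* did not.

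Animal m234 differed from the other animals in several of these genes. For *Ctsd* the log2 ratio of YFP+ over YFP- was 1.002 in m2, 0.94 in m6, 0.37 in m234, 0.90 in m235 and 0.88 in m236. For *Ctsl* it was 0.63 in m2, 0.64 in m6, 0.16 in m234, 0.71 in m235 and 0.56 in m236. *Ctsb*, *Ctss* and *Ctsa* also had their smallest ratio in m234, at 0.36, 0.21 and 0.14, whereas *Ctsh* had its largest there, at 0.24. Without animal m234 the log2 fold changes were 0.93 for *Ctsd*, 0.63 for *Ctsb*, 0.63 for *Ctsl*, 0.42 for *Ctss*, 0.41 for *Ctsa*, 0.16 for *Ctsh*, 0.84 for *Ctsk*, 0.098 for *Ctsz* and −0.19 for *Ctsc*, and 5 of the 10 genes were called higher, *Ctsh* being lost with an adjusted p of 0.0840 in edgeR. The YFP- library of m234 also had the lowest total count and the highest summed microglia markers of the 10 libraries.

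The summed level of 10 microglia markers was 986, 1014, 1072, 778 and 1168 CPM in YFP+ cells and 1498, 1079, 2745, 851 and 1233 CPM in YFP- cells (m2, m6, m234, m235 and m236 in turn). The YFP- library of m234 thus stood above all others. None of the 10 was at 0 in all libraries, 0 were called higher and 1, *P2ry13*, a purine receptor gene, was called lower (−0.72 ± 0.20, log2, SE; adjusted p = 0.0344, edgeR's quasi-likelihood test), and with the block 8 were lower. The log2 fold change of *P2ry13* was −0.44 without animal m234 (adjusted p = 0.0474) and −0.50 without the YFP- library of m234 alone. Its call was lost in 8 of the 15 fits that left out an animal or a library, namely animals m2, m6 or m235, the YFP+ library of m2, m6, m234 or m235, or the YFP- library of m236 (range over all alternatives 0.00292 to 0.108; where lost, adjusted p = 0.0531 to 0.108). All 10 markers had a negative log2 fold change (median −0.90). At an unadjusted p below 0.05, 6 were lower and 0 higher, limma-trend called 1 lower and 0 higher, and DESeq2 called 3 lower and 0 higher. That unadjusted limit in edgeR was passed by 2055 of all 13740 genes tested as lower and by 2062 as higher. Their part in the cathepsin values was not tested. The calls of *Ctsd*, *Ctsb*, *Ctsl*, *Ctss* and *Ctsa* held without m234, and their log2 fold changes were then larger.

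Other cell type markers moved with the sort too. Of 8 markers of CNS-associated macrophages, 4 were tested and 3 were higher, namely *Pf4* by 1.88 ± 0.31, *Mrc1* by 1.16 ± 0.32 and *Stab1* by 0.62 ± 0.094 (log2, SE; adjusted p = 0.00324, 0.0320 and 0.00195, edgeR's quasi-likelihood test). *Mrc1* lost its call without m6, m235 or m236 and without 7 of the 10 libraries singly, those of m234 and m235 in YFP+ cells and of m2 in YFP- cells being the exceptions (adjusted p = 0.0527 to 0.113). Summed over the 8, YFP+ libraries had 1838, 2082, 1509.5, 1902 and 2357 CPM and YFP- libraries 1091, 1329, 807, 1241 and 1397 CPM, in the same order of animals. Their most abundant gene, *F13a1*, which monocytes also express, had 0.78 ± 0.24 (adjusted p = 0.0511), and it was called with the block, in DESeq2, with no or a stricter filter, without animal m234 or either of its libraries and without the YFP- library of m236 (adjusted p = 1.62e-05 to 0.171 over all alternatives). *Cd163*, *Lyve1* and *Folr2* stayed at or under 0.130, 0.228 and 0.278 CPM. Of 7 monocyte markers, 4 were lower (among them *Plac8* at −2.19 ± 0.28, *Ccr2* at −1.12 ± 0.19 and *Vcan* at −1.005 ± 0.25) and 1, *Lyz2*, was higher (0.65 ± 0.13), and *Lyz2* was the most abundant. Their sums were 16499, 14833, 13236, 13149 and 20797 CPM for YFP+ and 10697, 10941, 8568, 12091 and 15912 CPM for YFP- cells. With the block, 2 of the 7 monocyte markers were higher and 5 lower. *Chil3* (0.34 ± 0.46, log2, SE) and *Ly6c2* (−0.45 ± 0.30) were added, and they are named because the block changed their calls. Their adjusted p was 0.664 and 0.338 without the block and 0.00132 and 2.62e-04 with it (edgeR's quasi-likelihood test). *Vcan* lost its call without m2 or m6, without the YFP- library of m2 and without that of m6 or m236 among YFP+ cells, and *Lyz2* without m2 or m6 (adjusted p = 0.0512 to 0.113 and 0.0516 to 0.0534, edgeR).

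Markers of lymphoid and dendritic cells were at low levels beside the cathepsins. Of 10 dendritic cell markers, 7 were tested and 6 were lower, from *Flt3* at −3.59 ± 0.37 to *Zbtb46* at −1.65 ± 0.29 (log2, SE), and they summed to 26.6, 15.3, 28.6, 14.5 and 11.02 CPM in YFP+ libraries and 83.0, 35.4, 67.4, 44.2 and 36.3 CPM in YFP- libraries, with *Clec9a* the most abundant in YFP+ cells and *Ccl17* in YFP- cells. Among these, *Flt3*, *Zbtb46* and *Dpp4* were at most 0.424, 0.652 and 0.742 CPM in YFP+ libraries. They passed the filter only through YFP- libraries, where they are high, and no conclusion is drawn from their calls. Of 7 markers of B and plasma cells, 3 were lower (*Igkc*, *Jchain* and *Ighm*, the most abundant), and the sums were 10.8, 10.9, 13.1, 5.84 and 17.6 CPM for YFP+ and 49.7, 32.4, 68.3, 32.2 and 52.7 CPM for YFP- libraries. *Igkc* and *Jchain* were each above 1 CPM in fewer than 3 YFP+ libraries and passed the filter through YFP- libraries, where they are high. No conclusion is drawn from the calls of *Igkc* and *Jchain*. Of 7 T cell markers only *Lck* passed the filter and was tested, and of 5 NK cell markers none did. T cell markers summed to at most 2.90 CPM, NK cell markers to at most 2.00 CPM and neutrophil markers to at most 31.6 CPM in any library. Of 2 neutrophil markers tested, 1 was lower, *S100a9* at −3.40 ± 0.71. *S100a9* is not read further, because it passed the filter only through the group where it is high. It was at most 0.356 CPM in YFP+ libraries and passed the filter on 3 YFP- libraries, mainly m2 and m6 (6.27 and 3.77 CPM, against 0.470, 1.07 and 0.600 in m234, m235 and m236), and it was tested in 17 of 24 alternatives. The more abundant *S100a8* had 0.23 ± 0.24 and was higher with the block (adjusted p = 0.560 without and 0.0154 with it; 0.0154 to 0.798 over all alternatives). Markers of oligodendrocytes and neurons, mainly *Mbp*, summed to 93.7 to 138.0 CPM, and 0 were called in edgeR. There, 1 was higher at an unadjusted p below 0.05, *Mbp*, which was also called in DESeq2, with the block, without animal m234 and without its YFP- library (adjusted p = 0.00306 to 0.253 over all alternatives), while limma-trend called 0. *Mobp*, another myelin gene, was called only without the YFP- library of m234 (log2 fold change 0.36 against 0.20 ± 0.17 with it; adjusted p = 0.0442, in a range of 0.0442 to 0.745 over all alternatives). In these lists no marker was at 0 in all libraries. *Lck* was not at an unadjusted p below 0.05 in edgeR, nor called by edgeR, limma-trend or DESeq2. The part of these cells in the cathepsin values was not tested.

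Of 14 other cathepsin genes, 9, among them the placental *Ctsj*, *Ctsm* and *Ctsq*, had 0 counts in every library, and *Ctsg* and *Ctsw*, of granulocytes and cytotoxic lymphocytes, were under the filter. *Ctso*, a papain-family cathepsin, was higher in YFP+ cells at 44.9 ± 2.59 against 33.3 ± 3.80 CPM (mean ± SD of 5 libraries each), a log2 fold change of 0.42 ± 0.077 (SE; adjusted p = 0.00526, edgeR's quasi-likelihood test). *Ctse*, an aspartic cathepsin of endosomes and so of the same class as cathepsin D, was lower at 4.50 ± 1.69 against 8.49 ± 2.28 CPM, a log2 fold change of −0.89 ± 0.25 (adjusted p = 0.0389). That call held only without m234, m235, the YFP+ library of m234 or the YFP- library of m235 among the fits that left out an animal or a library (adjusted p = 0.0534 to 0.150 in the other 11; range over all alternatives 9.53e-05 to 0.150). *Ctsf* had a log2 fold change of −1.29 ± 0.60 without a call (adjusted p = 0.173, and 0.0248 with the block), and its highest level, 28.3 CPM, was in the YFP- library of m234. Without that library its log2 fold change was −0.48 (adjusted p = 0.458, in a range of 0.0219 to 0.458 over all alternatives). *Ctsd* and *Ctse* thus differed in opposite directions within the aspartic class.

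Of 9 other genes for lysosomal peptidases, amidases and a thiol reductase, all passed the filter. In YFP+ cells 3 of them were higher and 0 lower, the median on the log2 scale was 0.24, and 7 were higher with the block. The 3 were *Tpp1*, the tripeptidyl peptidase gene (0.49 ± 0.077, log2, SE; adjusted p = 0.00238), *Aga*, which encodes aspartylglucosaminidase (0.42 ± 0.087; adjusted p = 0.00955), and *Scpep1*, a serine carboxypeptidase gene like *Ctsa* (0.24 ± 0.056; adjusted p = 0.0173), all in edgeR's quasi-likelihood test. The call of *Aga* was lost without m2 (adjusted p = 0.0585) and that of *Scpep1* without m6 or m236 (adjusted p = 0.0656 and 0.0887). *Ifi30*, the thiol reductase gene and the most abundant of the list, did not differ beyond its spread, with 924 ± 65.7 (YFP+) and 924 ± 91.7 CPM (YFP-; mean ± SD of 5 libraries). The 4 that the block added were *Cpq* (0.37 ± 0.23), *Dpp7* (0.25 ± 0.082), *Ggh* (0.24 ± 0.088) and *Prcp* (0.12 ± 0.060). Of these, *Dpp7* was also called in DESeq2 and without m234 or either of its libraries and *Ggh* without the YFP- library of m235 (adjusted p = 0.00984 to 0.220 and 7.43e-04 to 0.227 over all alternatives). For the 0 lower genes, edgeR at an unadjusted p below 0.05, limma-trend and DESeq2 gave 0 as well.

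Of 16 genes for cathepsin inhibitors, 15 were in the table and 6 were tested, and 0 were called in either direction in edgeR's quasi-likelihood test, with a median log2 fold change of −0.43. At an unadjusted p below 0.05 the counts were 0 higher and 4 lower, in limma-trend 0 and 0, in DESeq2 0 and 2, and with the block 2 and 4. All 13740 genes tested gave 2062 higher and 2055 lower at that unadjusted limit in edgeR. *Cst3*, the cystatin C gene and the most abundant, averaged 632 ± 79.7 (YFP+) and 844 ± 297 CPM (YFP-; mean ± SD of 5 libraries), with an adjusted p of 0.159 (0.0233 with the block; 0.0233 to 0.293 over all alternatives), and its highest value, 1362 CPM, was in the YFP- library of m234. Without that library its log2 fold change was −0.17, against −0.42 ± 0.19 with it. *Cst7*, which encodes cystatin F, an inhibitor of cathepsin C, had a log2 fold change of −0.83 ± 0.35 (SE; adjusted p = 0.129, 0.00356 with the block and 0.00356 to 0.257 over all alternatives). It was −0.55 without animal m234 and −0.49 without the YFP- library of m234, where its level was 46.2 CPM. *Cstb*, the cystatin B gene, had 0.21 ± 0.11 (adjusted p = 0.219, 0.0236 with the block and 0.0236 to 0.437 over all alternatives). The serpin genes *Serpina3g* (−0.48 ± 0.16) and *Serpinb9* (−0.44 ± 0.14) were the lower genes of DESeq2, and *Serpinb6a* (0.40 ± 0.21) was higher with the block. With raw library totals edgeR called *Serpina3g* and *Serpinb9* lower as well. *Serpina3g* was also called lower in edgeR without animal m2 or its YFP- library and *Serpinb9* without the YFP- library of m236 (adjusted p = 0.00175 to 0.194 and 0.0101 to 0.170 over all alternatives).

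A list of genes for mannose 6-phosphate tagging and for lysosomal sorting, not all of them specific to cathepsins, held 15 genes. All were tested, and 5 were higher in YFP+ cells and 0 lower. The median was 0.18 on the log2 scale, and 9 were higher with the block. *Sort1*, the sortilin gene, was higher by 0.64 ± 0.12 (log2, SE; adjusted p = 0.00553) and *Igf2r*, which encodes the larger mannose 6-phosphate receptor, by 0.50 ± 0.11 (adjusted p = 0.0121), the latter not called without m2 or m6 (adjusted p = 0.0534 to 0.0663, edgeR). The other 3, *Gga2* (0.37 ± 0.068), *Scarb2* (0.29 ± 0.083) and *Gga1* (0.15 ± 0.046), were chosen after their values were seen. *Gga1* kept its call only without the YFP+ library of m234 among the 15 fits that left out an animal or a library, and it also lost it with raw library totals and without the filter on low counts. *Scarb2* lost it without m2, m6, m235 or m236, with raw library totals, without the YFP- library of m2 or m6 and without that of m2, m235 or m236 among YFP+ cells (where lost, adjusted p = 0.0510 to 0.155 and 0.0707 to 0.149, edgeR). *Grn*, the progranulin gene and the most abundant of the list, had an adjusted p of 0.0801 (0.27 ± 0.096), or 0.00394 with the block, and it was also called in DESeq2 and without animal m234 or its YFP+ library (0.00394 to 0.246 over all alternatives). Of 4 regulators of the MiT/TFE family, which drive lysosomal genes, 0 were called by edgeR, limma-trend or DESeq2, or at an unadjusted p below 0.05 in edgeR, and 1, *Tfec*, was higher with the block (0.33 ± 0.15 without it; adjusted p = 0.167 without and 0.00428 with the block). The most abundant of them, *Tfe3*, had −0.071 ± 0.048 (adjusted p = 0.349). The range of *Tfec* over all alternatives was 0.00428 to 0.406. No gene of the tagging and sorting list was lower at an unadjusted p below 0.05 in edgeR, or in limma-trend or DESeq2.

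Likeness of pattern was described by Pearson's r of log2 CPM over the 10 libraries, which share animals and groups. For *Ctsk*, the gene with the largest absolute log2 fold change, the nearest genes outside the 10 were *Tmem106a* (r = 0.974), *Fndc3a* (r = 0.972) and *Gm3375* (r = 0.971). For *Ctss*, the gene with the highest level per kilobase, they included *Creg1* (r = 0.967) and *Tmem268* (r = 0.966). Among the 10 genes themselves, *Ctss* was nearest to *Ctsb* (r = 0.982), *Ctsd* (r = 0.942) and *Ctsh* (r = 0.936), and it ran opposite to *Ctsc* (r = −0.676). *Ctsk* was nearest to *Ctsh* (r = 0.802) and *Ctsz* (r = 0.783) and showed little relation to *Lgmn* (r = −0.0621). The difference between the groups enters each of these values.

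Some of the genes share bases with neighbours, and the role of the strand in the counting is unknown here. On the same strand, 670 exon bases of *Ctsd*, 31.5% of its exons, also belong to the predicted gene *Gm49369*, and 395 bases of *Ctsl* (6.40%) to *Gm49230*, and both predicted genes had 0 counts in all libraries. Union mode, in which the authors counted, leaves out reads that fall on more than 1 gene, so reads on these bases may be missing from the counts of *Ctsd* and *Ctsl*, whose levels per kilobase are divided by the full exon length. On the opposite strand, *Ctsl* overlaps *Gm47123* over 28.2% of its exons (1 count in all), *Ctsb* overlaps *Fdft1* over 16.3% and *Ctsa* overlaps *Pltp* over 13.5% and *Neurl2* over 8.82%. *Fdft1* was at 8.06 ± 2.02 (YFP+) and 8.70 ± 1.21 CPM (YFP-), far under *Ctsb*, and *Pltp* at 42.1 ± 17.3 (YFP+) and 41.1 ± 12.2 CPM (YFP-), far under *Ctsa*. *Ctsb*, *Ctsh*, *Ctsk*, *Ctss* and *Ctsz* share no stretch of 50 bases, the read length, with any transcript of another gene in the direction of transcription, and for *Ctsa*, *Ctsc* and *Lgmn* the gene sharing most with them held at most 0.276% of their stretches.

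Promoter windows are shown for *Ctsd*, *Ctsa*, *Ctsl* and *Ctss*, the genes called higher without a block for which a window was matched. RefSeq promoter windows on GRCm38.p6, 300 bases each, were matched for 8 of the 10 genes. *Ctsb* and *Ctsh*, also called higher, had no matched window and were not searched. They were searched on both strands for CACGTG, the E-box also bound by MiT/TFE factors, for TCACGTGA, its longer form that contains the first, for GAGGAAGT, a motif of the myeloid factor PU.1, for TTCNNNGAA, a STAT motif, and for GAAANNGAA, an interferon-response motif. Over all 32851 windows, 7.15% held CACGTG, 0.974% TCACGTGA, 3.20% GAGGAAGT, 8.30% TTCNNNGAA and 8.56% GAAANNGAA. CACGTG was found in a window of *Ctsd*, *Ctsa*, *Ctsl* and *Lgmn*, for *Ctsa* and *Lgmn* in 1 of their 2 windows, and TCACGTGA in those of *Ctsd* and *Ctsa*. Of these windows, only that of *Ctsd* spanned the annotated 5′ end of its gene. The matching windows of *Ctsa*, *Ctsl* and *Lgmn* lay inside the genes. The other windows of *Ctsa* and *Lgmn*, which spanned the 5′ end, held none of the motifs. GAGGAAGT was found in the windows of *Ctss* and *Ctsc*, GAAANNGAA in that of *Ctss* and TTCNNNGAA in that of *Ctsc*, and those of *Ctsk* and *Ctsz* held none of the motifs. The windows below are written 5′ to 3′ in the direction of the gene, with capitals for motif matches on either strand, *Ctsd* at chr7:142387778-142388077, minus strand, *Ctsa* at chr2:164833523-164833822, plus strand (the second of 2 windows of the gene), *Ctsl* at chr13:64370471-64370770, minus strand and *Ctss* at chr3:95526536-95526835, plus strand.
Ctsd: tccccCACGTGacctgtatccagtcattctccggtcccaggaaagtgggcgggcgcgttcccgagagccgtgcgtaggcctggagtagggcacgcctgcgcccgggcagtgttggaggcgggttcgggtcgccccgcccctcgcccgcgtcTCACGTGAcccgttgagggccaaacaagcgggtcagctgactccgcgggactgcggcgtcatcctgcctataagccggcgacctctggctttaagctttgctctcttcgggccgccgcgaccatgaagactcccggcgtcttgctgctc
Ctsa: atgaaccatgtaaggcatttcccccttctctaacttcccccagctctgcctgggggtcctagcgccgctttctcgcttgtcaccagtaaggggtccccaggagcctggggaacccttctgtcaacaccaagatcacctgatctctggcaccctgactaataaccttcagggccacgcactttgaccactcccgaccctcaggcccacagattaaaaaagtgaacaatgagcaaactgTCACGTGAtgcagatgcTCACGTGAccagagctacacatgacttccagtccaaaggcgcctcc
Ctsl: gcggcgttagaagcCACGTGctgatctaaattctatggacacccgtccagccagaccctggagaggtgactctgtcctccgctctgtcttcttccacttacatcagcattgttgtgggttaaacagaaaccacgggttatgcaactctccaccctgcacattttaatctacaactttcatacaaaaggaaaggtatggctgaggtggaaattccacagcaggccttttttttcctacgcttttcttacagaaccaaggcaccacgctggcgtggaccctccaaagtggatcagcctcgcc
Ctss: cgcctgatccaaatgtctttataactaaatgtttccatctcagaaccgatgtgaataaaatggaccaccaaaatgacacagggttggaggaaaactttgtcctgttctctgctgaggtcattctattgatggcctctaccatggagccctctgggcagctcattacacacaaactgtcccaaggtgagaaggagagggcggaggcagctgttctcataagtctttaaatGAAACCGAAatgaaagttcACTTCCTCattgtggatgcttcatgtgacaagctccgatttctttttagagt
A match describes the letters only, and binding at these places was not measured.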

How the data were processed

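The authors deposited raw read counts per Ensembl gene for 10 libraries, from 50-base single-end sequencing of directional libraries. They aligned with STAR (2.7.10b per the labels) to GRCm38 and counted with summarizeOverlaps in Union mode on Ensembl release 100. Here edgeR 4.0.16 (R 4.3.3) with TMM and its quasi-likelihood test, without a block, was run on the 13740 genes with CPM above 1 in 3 or more libraries (99.8% of the counts), with Benjamini-Hochberg adjustment at 0.05. The 24 alternatives were limma-trend (limma 3.58.1, prior counts 2 and 0.5), DESeq2 1.42.0, other scaling and filters, the animal as a block, and leaving out each animal or library. The edgeR, limma-trend and DESeq2 fits were run on simulated counts with changes at or past the log2 limit of 1 and no differences between animals. That check does not cover smaller changes or the pairing by animal. Libraries of a group differed beyond counting noise (chi-square per degree of freedom 17.8 to 71.8).

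Animal numbers in the labels pair the libraries. Across genes, which are not independent replicates, residuals from the group means correlated at r = 0.361 to 0.660 within animals and at most 0.0672 between them. The 10 genes and the lists were chosen with earlier results of these data known. Genes named are the 10, the most abundant gene, the gene with the largest change and the called genes with an absolute log2 fold change above 0.5 of each list, and any tested gene of the lists of other cathepsins, peptidases and inhibitors, and some genes under this rule are not reported here. Exon lengths and overlaps come from an annotation on the same build.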

Additional observations from a re-analysis of the deposited data

Results flagged for a closer look

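Of the 162 groups of 5 libraries looked at, from 81 genes, 8 held a library far from the other 4 for its gap relative to the range of the group on the log2 scale, and chance marks about 1 in 20 groups. *Ctsz* in the YFP+ library of m235 was at 1972 CPM, against 1691 to 1735 CPM in the other YFP+ libraries. It was the only one of the cathepsins and legumain with such a library. The YFP- library of m234 was high for *H2-DMa* (399.9 CPM against 321 to 341), for *P2ry13* (82.7 CPM against 40.4 to 47.1) and for *Mobp*, a myelin gene (6.23 CPM against 3.25 to 3.73). In the YFP- library of m235, *Fndc3a* was high at 280.3 CPM (209 to 219 in the others) and *Lck*, a T cell gene, low at 0.0714 CPM (0.966 to 1.76). In the YFP+ library of m235, *Ighm* was low at 2.97 CPM (7.19 to 8.74) and *Flt3* at 0.0605 CPM (0.259 to 0.424). The cause of these values was not tested.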

How the results depend on the processing

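Over 240 alternative fits of the 10 genes (24 for each), 214 gave the same side of the limit, 19 lost a call, 7 gained a call and 0 changed sign. *Ctsd*, *Ctsb* and *Ctsl* kept their calls in all 24, and *Ctsz* and *Lgmn* were called in none. The number of genes called higher, 6 in edgeR without a block, was 3 to 7 when an animal or a library was left out, with 3 without animal m2 (*Ctsb*, *Ctsd* and *Ctsl*) and 4 without m6, where fewer libraries were fitted. It was 5 with raw totals and without the filter, and 0 with the fold limit of 1. The replicate block for the animal gave 7 higher genes in edgeR and in limma-trend, and *Ctsk* and *Ctsc* were the only calls among the 10 that the block changed. The number called lower, 0 in edgeR without a block, was 1 (*Ctsc*) in DESeq2, in edgeR with the block and in limma-trend with the block, and 0 whenever an animal or a library was left out, and the cause was not tested.

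Over all genes tested, 937 were higher and 845 lower in edgeR without a block, 2307 and 2519 with the block in edgeR, 2250 and 2428 with the block in limma-trend, 1276 and 1307 in DESeq2, 705 and 1281 with raw totals, and 360 to 1037 and 284 to 911 when an animal or a library was left out. Among the other named genes, 1666 fits gave 1478 on the same side, 100 lost calls, 75 gained calls and 13 changes of sign. Those 13 were all of *Ifi30*, which went from −0.00082 to 0.0026 in limma-trend with either prior count and with the block, 0.0119 without the filter, 0.00034 with the stricter filter and 0.0023 with the block in edgeR, and to between 0.0084 and 0.037 in 7 fits without an animal or a library, and the cause was not tested. Over all 15 fits that left out an animal or a library it ran from −0.055 to 0.037. With 8396863 counts, the YFP- library of m234 limits the precision of low genes most. The levels are of RNA from sorted pools, and protease activity was not measured.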
